A study of Rattus norvegicus with 4 samples.

Results

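The nuclear Nduf genes encode the subunits and assembly factors of respiratory complex I that are not made inside the mitochondrion, and they were followed here in lumbar dorsal root ganglia (DRG) of cisplatin-treated and vehicle-treated rats. Members were all rows of the deposited gene table annotated as protein-coding, with a symbol that begins with Nduf and a chromosome other than the mitochondrial chromosome. This gave 43 of 33506 rows. By their known place in the complex, the list held 7 core subunits, 24 accessory subunits (7 of the matrix arm and 17 of the membrane arm), 7 assembly factors, Ndufa4 and Ndufa4l2, which are now assigned to complex IV, and 3 further rows, Ndufv3-ps1, Ndufb4l1 and another row named Ndufa13 on chromosome 7. Ndufs6, Ndufa12, Ndufab1, Ndufa3, Ndufb1, Ndufb4 and Ndufaf8 had no row under these symbols.

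Complex I takes electrons from NADH, passes them along a chain of iron-sulfur clusters in its matrix arm to ubiquinone, and pumps protons through its membrane arm. The core subunits do the catalysis and have bacterial counterparts, the accessory subunits surround and stabilise them, and the assembly factors build the enzyme without staying in it. DRGs hold the cell bodies of sensory neurons, long cells with a high demand for mitochondrial ATP, together with Schwann cells, satellite glia and other cells.

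The animals were wild-type neonatal Wistar rats. The vehicle group received PBS, and the cisplatin group received cisplatin, a platinum-based chemotherapeutic that binds DNA, at 0.3 mg/kg. The labels place the isolation of the ganglia 16 days after treatment, whereas the study's methods give injections at P14 and P16 and collection at P23. Each group had 2 libraries, each of several pooled lumbar DRGs. The labels number the rats 1 and 2 within each group, and the p-values measure only the spread between these libraries. The study's methods state that rats of both sexes were used, and the sex behind each library was not given in the sources used here.

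The libraries held 23267950 and 21384801 counts in the vehicle pair (replicates 1 and 2), and 25282170 and 25618417 counts in the cisplatin pair. All 12 neuron markers listed, among them Prph, Nefl and Avil, had counts in every library. Some libraries stood apart. Vehicle replicate 2 had 0.864 CPM (counts scaled to library size with TMM factors) summed over Y-linked genes, against 143 to 168 CPM in the other libraries. The 0.864 CPM came only from a second row named Ddx3y, which had 17 to 39 counts in every library. Eif2s3y, Kdm5d, Uty and the main Ddx3y row had 0 counts in vehicle replicate 2. Vehicle replicate 1 and both cisplatin libraries had counts in these rows, so the groups differed in Y-linked counts. The part of sex in the members' values was not tested. Skeletal muscle markers summed to 645 CPM in vehicle replicate 1 and to 18.9 to 63.6 CPM elsewhere. Schwann cell markers summed to 156000 and 137000 CPM in both replicates numbered 2, and to 61600 and 48000 CPM in both replicates numbered 1. In such bulk libraries, fewer cells of a type and less RNA per cell cannot be told apart.

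Most nuclear complex I genes had higher counts after cisplatin, by small amounts. The median log2 fold change was 0.44 for the 23 accessory subunits tested, 0.16 for the core subunits and 0.10 for the assembly factors, and the difference between these roles was not tested. edgeR's filter on low counts kept 40 of the 43 members among the 14719 genes tested. The log2 fold change of cisplatin over vehicle was above 0 in 38 of the 40, with a background of 49.1% of all genes tested. The median was 0.39, a 1.31-fold difference, and the range was -0.65 to 1.08, whereas the median of all genes tested was -0.01. With a correction for gene length, described further on, the members' median was 0.14 with 30 of 40 above 0, beside 7552 of 14719 among all genes, and the role medians were 0.20, 0.11 and 0.10 in the same order. For 27 members both cisplatin libraries lay above both vehicle libraries, for 13 the groups overlapped and for 0 they lay below. Over all genes, both cisplatin libraries lay above in 20.6%.

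Calls needed both a p-value under 0.05 after Benjamini-Hochberg adjustment and a 1.5-fold difference or more. edgeR's quasi-likelihood test called 0 members, against a background of 0.00679% (1 of the 14719 genes). At an unadjusted p under 0.05 with the same fold change, 8 members were higher and 0 lower, where 2.8% of all genes tested were higher. DESeq2 on the same counts called 3 members higher, Ndufa4, Ndufb10 and Ndufa11, against 0.236% of the genes it adjusted. For any single gene, permuting 2 libraries against 2 in an exact two-sided test gives p = 0.33 at best, so both tests rest on a spread modelled across genes. These counts without vehicle replicate 2, the library that lacked counts in most Y-linked rows, were 33 of 40 members higher with a median of 0.37. Without vehicle replicate 1 they were 38 of 40 with a median of 0.44, and edgeR called 0 members in either case.

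**Figure D1:**
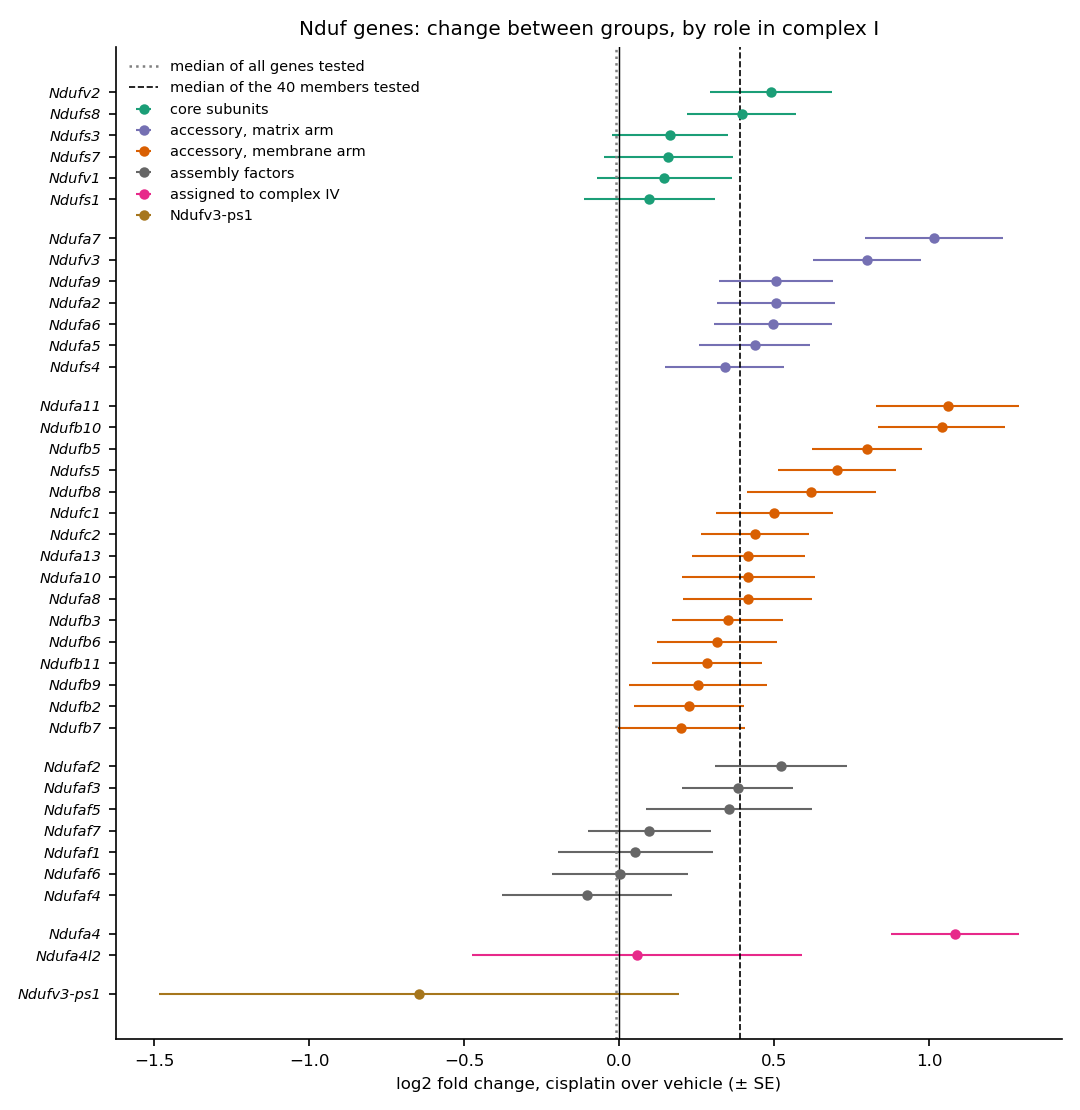
The log2 fold change of cisplatin over vehicle with its standard error (bars) is plotted for 39 of the 40 members tested, grouped by role in complex I. The core and accessory subunits drawn all lie to the right of 0, the core subunits between 0.10 and 0.49 and the 23 accessory subunits between 0.20 and 1.06, while the 7 assembly factors spread from -0.10 to 0.52.

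The nuclear core subunits carry the redox centres and the ubiquinone site. Of these 7, all had a log2 fold change above 0, with a median of 0.16, but none passed a test and the groups overlapped in 5. Ndufv2 and Ndufs8 were the exceptions to the overlap, 2 of 7, where both cisplatin libraries lay above in 20.6% of all genes tested. Ndufv2 (ENSRNOG00000042503), which holds an iron-sulfur cluster near the NADH site, had 148 and 174 CPM in the vehicle libraries and 217 and 236 CPM in the cisplatin libraries. Both cisplatin libraries lay above both vehicle libraries, with a log2 fold change of 0.49 (standard error, SE, 0.20, edgeR's adjusted p = 0.519). Ndufs8, which carries clusters close to ubiquinone, had 83.0 and 91.0 CPM against 111 and 118 CPM, again without overlap, and a log2 fold change of 0.40 (SE 0.18, edgeR's adjusted p = 0.532).

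The core subunits Ndufs3, Ndufs7, Ndufv1 and Ndufs1 overlapped between the groups. Ndufs3, a subunit of the matrix arm, had 110 and 94.8 CPM in the vehicle and 121 and 108 CPM in the cisplatin libraries. Ndufs7, which holds the last cluster before ubiquinone, had 134 and 107 CPM against 145 and 124 CPM. In both genes the lower cisplatin library was below the higher vehicle library. Ndufv1, the flavin subunit that binds NADH, had 205 and 164 CPM against 223 and 186 CPM. Ndufs1, the largest nuclear core subunit and a carrier of clusters, had 173 and 136 CPM against 175 and 155 CPM. In all 4 the replicates numbered 1 were the higher library of their group, and the log2 fold changes ran from 0.10 in Ndufs1 to 0.16 in Ndufs3. Without vehicle replicate 2, Ndufs1 was at -0.06 and Ndufv1 at -0.00058 on the log2 scale.

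All 7 accessory subunits of the matrix arm that were tested had both cisplatin libraries above both vehicle libraries, against 20.6% of all genes tested. Their median log2 fold change was 0.51. Ndufa7 (ENSRNOG00000006939, chromosome 7, 18683553 to 18696330, + strand, Rnor_6.0) had 38.2 and 53.2 CPM in the vehicle and 90.2 and 94.8 CPM in the cisplatin libraries. The lowest cisplatin library was thus well above the highest vehicle library. Its log2 fold change was 1.02 (SE 0.22, edgeR's adjusted p = 0.509), and DESeq2 gave an adjusted p = 0.0535, just above the threshold. With the independent filtering of DESeq2 set to the threshold of the calls, an alternative chosen after the data were seen, the adjusted p from DESeq2 was 0.0466. Ndufv3, a small subunit next to the NADH site, had a log2 fold change of 0.80 (edgeR's adjusted p = 0.509). The remaining 5, among them Ndufa9, which sits where the arms meet, Ndufs4, whose loss destabilises the NADH-binding end, and Ndufa6, which anchors an acyl carrier protein, ran from 0.34 to 0.51.

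In the membrane arm, 16 of 17 accessory subunits were tested. All 16 had a log2 fold change above 0, with a median of 0.42, where 49.1% of all genes tested were above 0. The groups overlapped only in Ndufb9. In the other 15 both cisplatin libraries lay above both vehicle libraries, against 20.6% of all genes tested. Ndufa11 and Ndufb10 led this group and were called by DESeq2. Ndufa11 (ENSRNOG00000048320, chromosome 9, 10334090 to 10338216, - strand), which lies at the contact between complex I and complex III in respiratory supercomplexes, had 62.3 and 87.3 CPM in the vehicle libraries and 147 and 165 CPM in the cisplatin libraries. The means were 74.8 ± 17.7 and 156 ± 12.2 CPM (SD, n = 2 each). The groups did not overlap, and the log2 fold change was 1.06 (SE 0.23, edgeR's adjusted p = 0.509, DESeq2's adjusted p = 0.0415).

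Ndufb10 (ENSRNOG00000014568, chromosome 10, 14090128 to 14092289, - strand), a disulfide-stabilised subunit on the intermembrane space side, had 57.7 and 74.7 CPM in the vehicle and 141 and 131 CPM in the cisplatin libraries. It too showed no overlap, with means of 66.2 ± 12.0 and 136 ± 6.85 CPM (SD, n = 2 each) and a log2 fold change of 1.04 (SE 0.21, edgeR's adjusted p = 0.509, DESeq2's adjusted p = 0.0279). Ndufb5, a subunit with a single membrane helix, had 68.2 and 71.5 CPM against 129 and 115 CPM. Its log2 fold change was 0.80 (SE 0.18, edgeR's adjusted p = 0.509, DESeq2's adjusted p = 0.104). In the vehicle group the replicates of Ndufb5 lay closer together than those of Ndufa11. The change of Ndufb5 was smaller, and neither test called it. Ndufs5 and Ndufb8 followed at 0.70 and 0.62, and the other 11 members tested ran from 0.20 in Ndufb7 to 0.50 in Ndufc1.

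The largest log2 fold change of all members belonged to Ndufa4 (ENSRNOG00000005512, chromosome 4, 38233680 to 38240848, - strand), once counted as a complex I subunit and now as a subunit of cytochrome c oxidase. It had 123 and 142 CPM in the vehicle libraries and 302 and 259 CPM in the cisplatin libraries. With means of 132 ± 13.5 and 281 ± 30.5 CPM (SD, n = 2 each), it was 2.12-fold higher in the cisplatin group, a log2 fold change of 1.08 (SE 0.21, edgeR's adjusted p = 0.509, DESeq2's adjusted p = 0.00888). Its row overlaps Phf14 on the opposite strand, and whether counting used strand was not settled in the sources used here. The rows of Ndufs8, Ndufs3, Ndufb5, Ndufa2, Ndufa8 and Ndufv3-ps1 also overlap a row on the opposite strand. Ndufb6 overlaps Topors on its own strand. Without vehicle replicate 2, the log2 fold changes of Ndufa4, Ndufa11, Ndufb10 and Ndufa7 were 1.19, 1.33, 1.24 and 1.28, and without vehicle replicate 1 they were 0.99, 0.85, 0.88 and 0.81. Its paralogue Ndufa4l2, known as a hypoxia-induced form, was much lower, at 2.16 and 5.18 CPM in the vehicle and 2.72 and 4.89 CPM in the cisplatin libraries. Here both replicates numbered 2 were high and the groups overlapped, with a log2 fold change of 0.06 (SE 0.53).

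**Figure D2:**
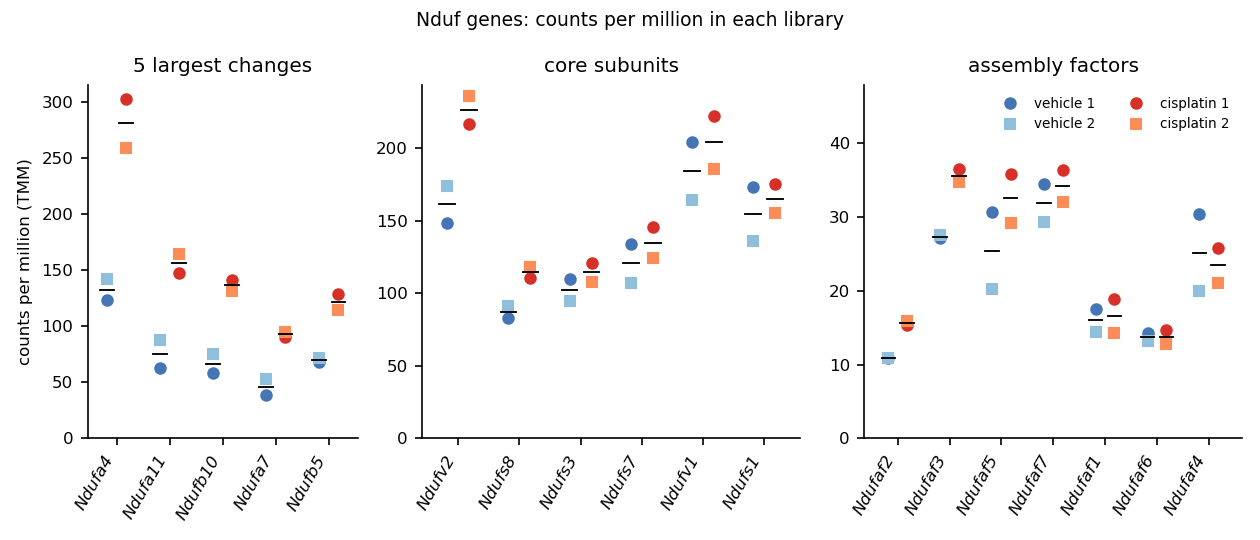
CPM is plotted on a linear axis for each library, with circles for replicate 1, squares for replicate 2, vehicle in blue, cisplatin in red and orange, and a short line for each group mean (n = 2). The 5 members with the largest change were picked by that change in these libraries. That both of their cisplatin libraries lie above both vehicle libraries is therefore no separate result. Of the core subunits drawn 4 of 6 overlap, as do 5 of the 7 assembly factors. Over all genes tested, both cisplatin libraries lay above in 20.6%.

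The assembly factors had lower levels than the subunits. Per gene length, they had a median of 12.3 FPKM in the vehicle group, against 113 FPKM for the core subunits, 93.9 FPKM for the accessory subunits of the matrix arm and 103 FPKM for those of the membrane arm. Their median log2 fold change was 0.10, with 6 of 7 above 0 and none past a test. Ndufaf2, a late-acting factor for the NADH-binding end, had 10.8 and 10.9 CPM in the vehicle libraries and 15.4 and 15.9 CPM in the cisplatin libraries. Ndufaf3, which works with Ndufaf4 on the ubiquinone-binding part, had 27.2 and 27.5 CPM against 36.5 and 34.8 CPM. These were the assembly factors without overlap, at log2 fold changes of 0.52 and 0.38 (SE 0.21 and 0.18, edgeR's adjusted p = 0.519 and 0.540). They made up 2 of 7, with a background of 20.6% of all genes tested.

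The other assembly factors overlapped between the groups. Ndufaf5, an arginine hydroxylase acting on Ndufs7, had 30.6 and 20.2 CPM in the vehicle and 35.9 and 29.2 CPM in the cisplatin libraries. Ndufaf7, an arginine methyltransferase, had 34.5 and 29.4 CPM against 36.4 and 32.0 CPM. Ndufaf1, part of the assembly complex of the membrane arm, had 17.5 and 14.5 CPM against 18.9 and 14.3 CPM. In these genes vehicle replicate 2 or cisplatin replicate 2 was the lowest library. Ndufaf6 had 14.3 and 13.2 CPM against 14.7 and 12.8 CPM, a log2 fold change of 0.0029. Ndufaf4, the partner of Ndufaf3, had 30.5 and 19.9 CPM against 25.8 and 21.1 CPM and a log2 fold change of -0.10, the only assembly factor below 0. Without vehicle replicate 1, Ndufaf4 was at 0.24 on the log2 scale.

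The only other tested member below 0 was Ndufv3-ps1, a short row with 8 and 13 counts in the vehicle and 12 and 3 counts in the cisplatin libraries, and a log2 fold change of -0.65 (SE 0.84). The 3 members not tested had at most 10 counts in any library. The row named Ndufa1 had 4 and 4 counts against 1 and 8, the Ndufa13 row on chromosome 7 had 5 and 1 against 4 and 10, and Ndufb4l1 had 0 in every library, where 3 counts would be 0.118 to 0.152 CPM. These floors cover counting error only, since PCR copies of a molecule are counted as reads of their own.

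The order of the members by level per gene length was nearly the same in both groups, with Spearman's rho = 0.945 across 40 members, which share their libraries. In vehicle-treated rats Ndufb9, Ndufb8 and Ndufa13 were highest, at mean values of 210, 199 and 197 FPKM, and these neighbours did not differ beyond their spread, since the libraries of Ndufb9 reached down to 179 FPKM. In cisplatin-treated rats the highest were Ndufa4 at 350 FPKM, Ndufb8 at 307 FPKM and Ndufa11 at 265 FPKM, close to Ndufa13 at 264 FPKM and Ndufb9 at 252 FPKM, which did not differ from Ndufa11 beyond their spread. By mean level Ndufa11 moved from rank 9 to rank 3 and Ndufa4 from rank 7 to rank 1, whereas Ndufv1 moved from rank 14 to rank 21. At the low end, Ndufaf1, Ndufaf4, Ndufa4l2 and Ndufv3-ps1 kept ranks 37 to 40 in both groups.

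In total the members took 0.363% and 0.291% of the protein-coding counts in the vehicle libraries and 0.464% and 0.393% in the cisplatin libraries. Both cisplatin libraries were above both vehicle libraries, at a ratio of the mean shares of 1.31. The highest CPM was found in cisplatin replicate 1 for 24 of the 40 members tested, in cisplatin replicate 2 for 13, in vehicle replicate 2 for 2 and in vehicle replicate 1 for 1. Vehicle replicate 2 was the lowest library for 23 members. How all genes tested divide between the libraries in this way was not examined. Other measures moved with the members. All 12 neuron markers had a log2 fold change above 0 (median 0.26), with summed levels of 24500 to 32100 CPM in the vehicle and 27900 to 39000 CPM in the cisplatin libraries, ranges that overlap. All 7 Schwann cell markers were below 0 (median -0.55), and 0 of 6 skeletal muscle markers were above 0. The summed levels of both lists overlapped between the groups. Those of skeletal muscle were 645 and 18.9 CPM in the vehicle and 63.6 and 20.1 CPM in the cisplatin libraries. The part of cell composition in the members' values was not tested.

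**Figure D3:**
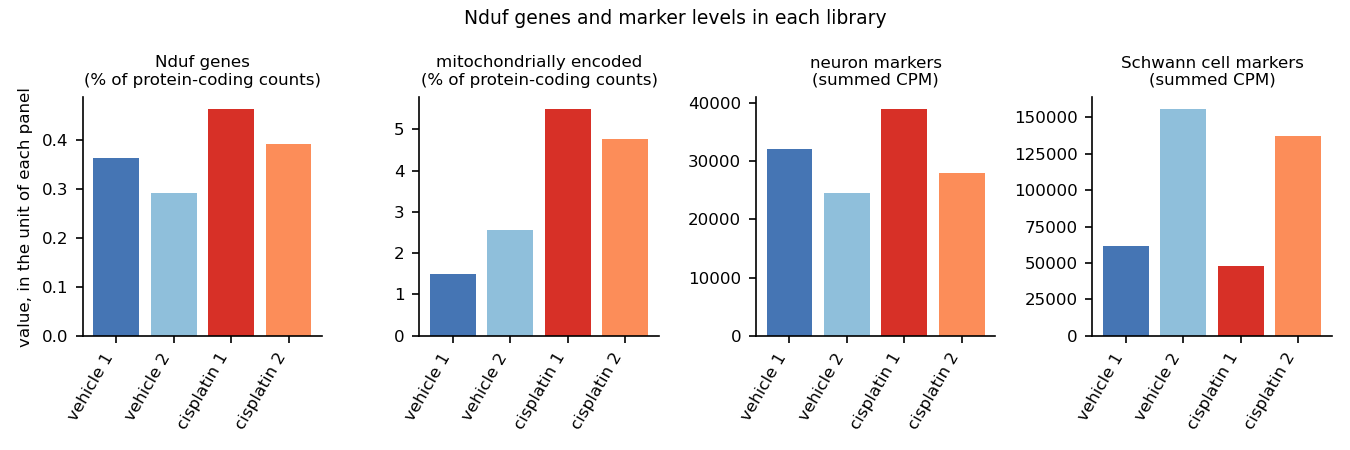
Bars starting at 0 give, for each of the 4 libraries, the members' share of protein-coding counts, the share of mitochondrially encoded genes, and the summed CPM of neuron and Schwann cell markers. The first 2 panels are higher in both cisplatin libraries, at 0.393% and 0.464% for the members, while Schwann cell markers are high in both replicates numbered 2.

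Gene length also moved with the members' values. Across the 14719 genes tested, shorter genes had higher log2 fold changes (Spearman's rho = -0.357, across genes, which are not independent replicates), and across the 40 members rho was -0.351. The members were short, with a median length of 869 bases against 2371 bases for all genes tested. Among genes over 500 and up to 1000 bases, the median log2 fold change was 0.26 for 1143 genes and 0.44 for the 18 members in that range. Among those over 1000 and up to 1500 bases it was 0.16 for 1974 genes and 0.39 for 8 members.

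In each library, a smooth curve over gene length was fitted to each gene's log2 CPM minus that gene's mean over all libraries. When this curve was removed, the members' median log2 fold change was 0.14 and 30 of 40 stayed above 0. By role the corrected medians were 0.11 for the core subunits, 0.22 for the matrix arm, 0.15 for the membrane arm and 0.10 for the assembly factors, so the distance between accessory and core subunits narrowed. Ndufa4, Ndufb10, Ndufa11 and Ndufa7 kept 0.84, 0.78, 0.77 and 0.71. Ndufs3 and Ndufs7 changed sign, to -0.03 and -0.05, as did Ndufb9, Ndufb2 and Ndufb7 of the membrane arm, to -0.02, -0.10 and -0.11. The correction can also remove a true difference shared by short genes, and it was chosen with results of these data known.

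**Figure D4:**
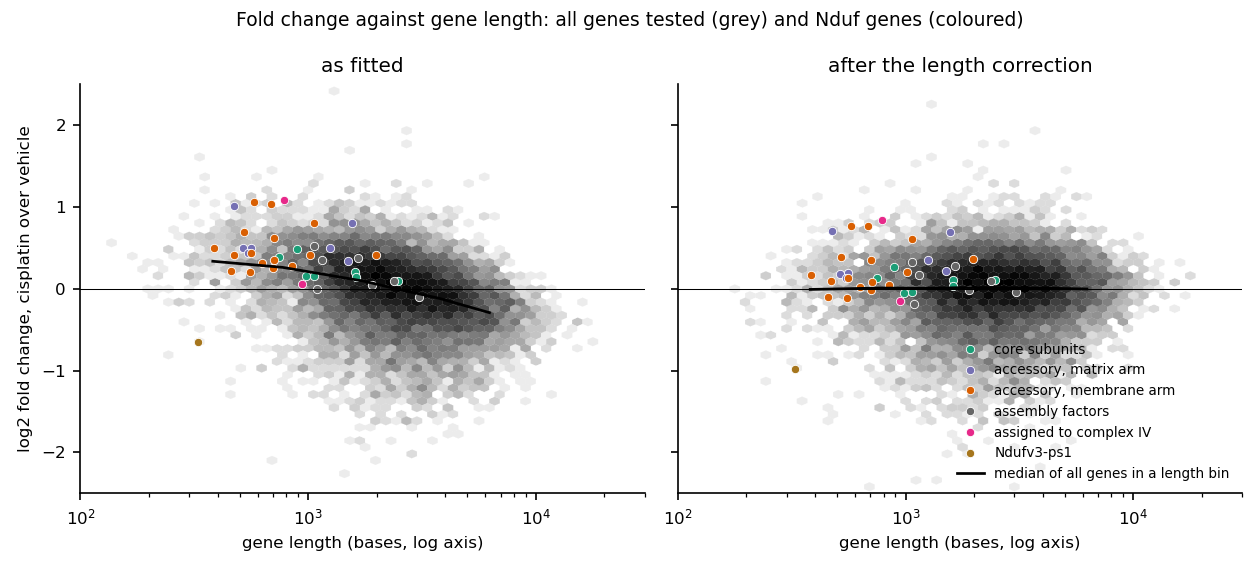
The log2 fold change is plotted against gene length (log axis) for all genes tested (grey, darker where more genes lie) and for the members (coloured by role), as fitted on the left and after the length correction on the right; the black line joins the medians of length bins. On the left most members lie above the line in their length range (rho = -0.351 across members), and on the right their median is 0.14.

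Several complex I proteins were counted in rows that carry another symbol. The descriptions in the deposited table named a complex I protein in 33 such rows for 21 proteins, and 18 of these rows had counts. Ndufb4, a membrane arm subunit, was counted mainly as LOC688963, with 1497 and 1420 counts in the vehicle and 2639 and 2691 in the cisplatin libraries, a log2 fold change of 0.73 (SE 0.19, edgeR's adjusted p = 0.509, DESeq2's adjusted p = 0.224). Ndufab1, the mitochondrial acyl carrier protein, was counted as LOC683884, with 2597 and 1771 counts against 3583 and 2917. Ndufa3 was counted mainly as AC103574.4, with 928 and 733 counts against 1422 and 1343. In each of these rows both cisplatin libraries were above both vehicle libraries in CPM, as they were in LOC100910710 for Ndufa12, at a log2 fold change of 0.59. Over all genes tested this was so in 20.6%. Ndufaf8, a partner of Ndufaf5, counted as LOC690871, overlapped at 486 and 423 counts against 504 and 638. The tested rows RGD1306782 for Ndufb11 and LOC100912599 and LOC679739 for Ndufs6 overlapped as well. In the remaining tested rows of this kind both cisplatin libraries lay above.

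The row of the Ndufa1 protein stood apart from all of these. Ndufa1 is a small X-linked membrane arm subunit. Its protein name belongs also to AC107580.1 (ENSRNOG00000052226, chromosome X, 123803083 to 123806778, - strand), which had 13 and 5 counts in the vehicle libraries and 642 and 413 counts in the cisplatin libraries. Its log2 fold change of 5.74 (SE 0.44, edgeR's adjusted p = 0.112, DESeq2's adjusted p = 6.78e-25) was the highest among all 14719 genes tested. Summed over both Ndufa1 rows, the libraries held 17 and 9 counts against 643 and 421, a ratio of mean CPM of 38.0. How reads are divided between this locus and copies of Ndufa1 elsewhere in the genome was not tested, so these values are uncertain. The copies also touch members: Ndufs5 reads could be split with LOC100363268 and AABR07016779.1, and over the 3 rows together the ratio of mean CPM was 1.54.

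**Figure D5:**
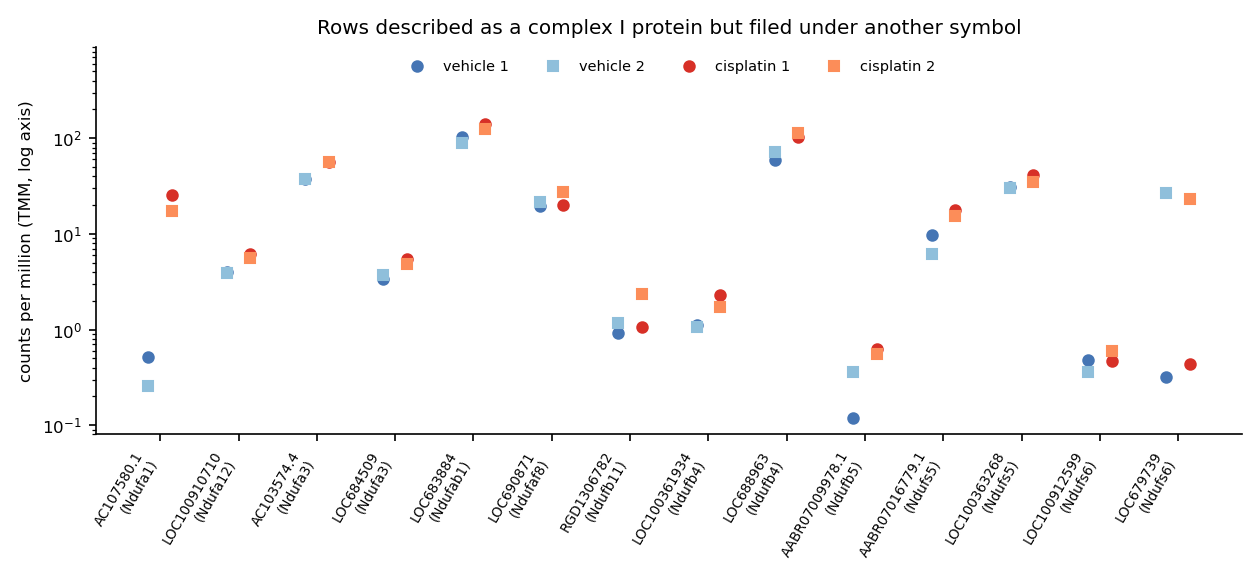
CPM on a log axis is plotted in each library for the 14 tested rows whose description names a complex I protein (in brackets) under another symbol. In AC107580.1 the cisplatin libraries lie at 17.6 and 25.3 CPM and the vehicle libraries at 0.254 and 0.519 CPM, and LOC679739 splits by replicate number instead of by treatment.

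Complex I genes outside the list were set beside the members. The 7 mitochondrially encoded subunits, which form the proton-pumping core of the membrane arm, all had both cisplatin libraries above both vehicle libraries, with a median log2 fold change of 1.16, and DESeq2 called 2 of them. Over all genes tested both cisplatin libraries lay above in 20.6%, and 0.236% of the genes adjusted by DESeq2 were called higher. The range ran from 0.70 in Mt-nd5 to 1.94 in Mt-nd2. The vehicle libraries of Mt-nd2 lay far apart, at 390 and 1184 CPM, with 2956 and 3063 CPM in the cisplatin libraries. Mt-nd3 had 5021 and 5174 counts against 17012 and 15635 (log2 fold change 1.53, edgeR's adjusted p = 0.509, DESeq2's adjusted p = 1.4e-05). Of 9 assembly factors with other names, 5 were above 0 and 4 below, with a median of 0.11 and none past a test. Ecsit, a factor of the membrane arm assembly complex, was highest at 0.52, and Timmdc1, which works on the same arm, lowest at -0.28. Dmac1, Dmac2 and Coa1 had no row under these symbols.

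The promoters of the members are shown because the genes lay on the same side of 0 together. Of the 40 members tested, 35 matched an entry by symbol in the RefSeq promoter table of GRCr8, a later build than that of the counts, which gives 250 bases before and 50 after each start. Ndufaf6, Ndufa8, Ndufb9 and Ndufv3-ps1 were among those without an entry. The letters of 4 motifs of factors known from respiratory genes were searched on both strands: TGCGCA for NRF1, CCGGAAG for ETS factors such as GABP, AAGATGGC for YY1 and AAGGTCA for ERR factors. TGCGCA reads the same on both strands, and no motif contains another. The promoters of the 4 matched members with the largest log2 fold change and of Ndufs1, the core subunit with the smallest, are printed with matches in capitals.
Ndufa4 (chr4:40975510-40975809, - strand): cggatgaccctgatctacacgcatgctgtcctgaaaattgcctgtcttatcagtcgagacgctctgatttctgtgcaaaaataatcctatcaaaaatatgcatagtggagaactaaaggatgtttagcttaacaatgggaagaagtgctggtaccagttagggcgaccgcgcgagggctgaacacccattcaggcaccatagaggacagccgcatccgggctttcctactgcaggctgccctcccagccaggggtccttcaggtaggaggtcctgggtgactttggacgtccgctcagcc
Ndufa11 (chr9:1637364-1637663, + strand): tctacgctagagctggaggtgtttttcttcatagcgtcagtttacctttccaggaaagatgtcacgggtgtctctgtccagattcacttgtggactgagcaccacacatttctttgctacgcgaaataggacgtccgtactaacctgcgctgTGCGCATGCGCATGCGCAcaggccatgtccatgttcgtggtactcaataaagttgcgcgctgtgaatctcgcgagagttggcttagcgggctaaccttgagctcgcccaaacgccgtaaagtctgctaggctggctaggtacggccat
Ndufb10 (chr10:14255917-14256216, - strand): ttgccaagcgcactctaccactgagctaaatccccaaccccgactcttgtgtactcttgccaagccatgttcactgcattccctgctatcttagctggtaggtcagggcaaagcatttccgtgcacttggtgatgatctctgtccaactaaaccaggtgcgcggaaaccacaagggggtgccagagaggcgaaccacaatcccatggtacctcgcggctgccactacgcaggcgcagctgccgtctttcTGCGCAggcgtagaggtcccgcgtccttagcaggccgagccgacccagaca
Ndufa7 (chr7:15311196-15311495, + strand): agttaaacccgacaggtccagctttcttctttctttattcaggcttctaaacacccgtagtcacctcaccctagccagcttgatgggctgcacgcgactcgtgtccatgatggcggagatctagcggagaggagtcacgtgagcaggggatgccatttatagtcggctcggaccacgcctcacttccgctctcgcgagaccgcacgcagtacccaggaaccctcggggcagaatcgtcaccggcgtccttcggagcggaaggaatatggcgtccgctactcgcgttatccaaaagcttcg
Ndufs1 (chr9:72073556-72073855, - strand): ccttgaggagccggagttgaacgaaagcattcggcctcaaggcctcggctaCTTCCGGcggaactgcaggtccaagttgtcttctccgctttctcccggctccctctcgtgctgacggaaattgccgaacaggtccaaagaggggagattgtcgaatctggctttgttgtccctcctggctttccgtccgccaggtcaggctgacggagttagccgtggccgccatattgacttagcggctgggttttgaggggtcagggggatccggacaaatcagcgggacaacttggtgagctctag

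The Ndufa11 promoter holds 3 adjoining copies of the NRF1 letters, which begin at positions -98, -92 and -86 relative to the start. The Ndufb10 promoter holds them from position -1. Neither the Ndufa4 nor the Ndufa7 window holds any of the 4 motifs, and Ndufs1 holds an ETS match. The NRF1 letters were found in 10 of 35 members (28.6%) and in 7.24% of the 33469 promoters of the table. YY1 letters were found in 7 members (20%) and 3.17% of all promoters, ETS letters in 7 members and 8.75%, and ERR letters in 2 members (5.71%) and 4.61%. The members' promoters had a median GC content of 57.3%, against 51.7% for the table, and the part of base composition in these shares was not tested. The table was used whole, without a limit to protein-coding or expressed genes. The members were protein-coding genes that passed the filter on counts, so the shares compare unlike sets. The median log2 fold change was 0.50 in the 10 members with NRF1 letters and 0.35 in the others. For YY1 the values were 0.50 and 0.41, and for ETS 0.40 and 0.43. A match is a description of letters and not of binding.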

How the data were processed

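RNA sequencing libraries were made from pooled lumbar DRGs with poly-T selection. The submitters' processing notes name HISAT2 2.0.5, StringTie 1.3.3b and featureCounts 1.5.0-p3, and the build was Rnor_6.0. The authors deposited whole-number counts per gene without normalisation, and FPKM values, which equal the count over gene length and a library constant. Deposited gene lengths were used for the length correction, and all sample columns were used.

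Protein-coding genes were filtered with filterByExpr (14719 of 22293 kept), scaled with TMM (factors 1.10, 0.941, 1.03 and 0.938) and compared with edgeR 4.0.16 (glmQLFit, glmQLFTest; R 4.3.3), without a block. Standard errors were obtained from each fold change (log2) and its F statistic. DESeq2 1.42.0 and limma 3.58.1 on log2(FPKM + 1) and log2(FPKM + 0.1) were alternatives; the pseudocount understates the change of low genes. The length correction was a lowess curve of span 0.3 per library, used as an offset. The scripts were tested on simulated data: of 200 genes changed 4-fold among 14719, edgeR recovered 195 with 9 false calls and DESeq2 193 with 5. The simulation held no replicate effect and gave every gene the same modelled spread. Its 4-fold changes were larger than the 2.12-fold of Ndufa4, the largest among the members. Recovery at the fold changes of the members was therefore not tested.

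The members and gene lists were chosen with earlier results of these data known. The rule named the 7 core subunits, the assembly factors, the 5 tested members with the largest and the 5 with the smallest log2 fold change and those called by either tool, while others are given by range and count. CPM has an SD over n = 2. Promoters came from a RefSeq table. The values of 1 named member are not reported here, although it counts in the totals.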

Additional observations from a re-analysis of the deposited data

How the results depend on the processing

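The members' median and the number above 0 kept their direction under every alternative run. The median was 0.14 with the length correction, with and without the replicate block, and 0.37 to 0.44 with 1 library left out, where 33 to 38 members were above 0. edgeR called 0 members under each other scaling, filter and left-out library, as did limma. The members called numbered 3 with DESeq2, 4 with the independent filtering of DESeq2 at 0.05 (chosen after seeing the data) and 8 at an unadjusted p under 0.05. Genes called in all numbered 2 without a filter, 2 with a minimum of 10 counts in each library, 4 with limma on log2(FPKM + 1), 2 on log2(FPKM + 0.1), 99 with DESeq2, 126 with that filtering, 1195 at the unadjusted p, and 0 (without cisplatin replicate 1) to 7 (without cisplatin replicate 2) with 1 library left out.

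The replicate block used the rat numbers of the titles, and same-numbered libraries are different rats. The difference between replicates 2 and 1 in the vehicle group correlated with that in the cisplatin group (Pearson's r = 0.444, Spearman's rho = 0.567 across 14719 genes). With the replicate block edgeR called 1665 genes (3.59% of those tested higher) and 8 members, Ndufa4, Ndufa11, Ndufb10, Ndufa7, Ndufb5, Ndufv3, Ndufs5 and Ndufb8. With the replicate block and the length correction it called 1082 genes (1.88% higher) and 6 members. The replicate block without the length correction left the direction of each named member as it was.

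Single members near 0 changed sign. With library size alone Ndufaf1 was at -0.0059 and Ndufaf6 at -0.054. With the length correction 30 members were above 0. Ndufb9, Ndufb2 and Ndufb7 were then at -0.02, -0.10 and -0.11, Ndufs3 was at -0.032, Ndufs7 at -0.053, Ndufa4l2 at -0.15, Ndufaf1 at -0.0099 and Ndufaf6 at -0.19, and with the replicate block as well at -0.029, -0.046, -0.12, -0.014 and -0.19. With 1 library left out, Ndufa4l2 ranged from -0.44 to 0.82, Ndufaf4 from -0.37 to 0.24, Ndufv1 from -0.00058 to 0.32, Ndufs1 from -0.064 to 0.29, Ndufaf1 from -0.16 to 0.24, Ndufaf6 from -0.088 to 0.10 and Ndufaf7 from -0.011 to 0.23. The cause was not tested. Such fits leave 1 library in a group, which is assumed to vary like the others. Depth limits the untested members and Ndufv3-ps1.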

Other observations

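Ndufs6, a zinc-binding accessory subunit of the matrix arm, was counted in the rows LOC100912599, with 7 to 14 counts in each library, and LOC679739 (ENSRNOG00000049394, chromosome 1, 32573228 to 32581781, + strand, Rnor_6.0). The latter row had 8 and 530 counts in vehicle replicates 1 and 2 and 11 and 541 counts in cisplatin replicates 1 and 2. It thus split the libraries by replicate number and not by treatment, at a log2 fold change of -0.21 (standard error 1.94). How reads are divided between such rows, and how alleles of these rats map to them, could not be tested from counts, so these values are uncertain. The sum over the Ndufs6 rows was 20 and 537 counts against 23 and 555.

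Within the groups the members also moved together to some extent. From vehicle replicate 1 to vehicle replicate 2 the median log2 difference over the 40 members tested was -0.13, with 15 members higher in the latter, and from cisplatin replicate 1 to cisplatin replicate 2 it was -0.12, with 14 higher. Between groups the 4 pairs of libraries gave medians from 0.35, vehicle replicate 1 against cisplatin replicate 2, to 0.46, vehicle replicate 2 against cisplatin replicate 1. Of the 40 members, 28 were higher in cisplatin replicate 2 than in vehicle replicate 1, and 36 to 39 in the cisplatin library of the other pairs. The SD of the difference over members was 0.36 to 0.52 between groups. All 4 medians between groups were larger in size than the medians within groups. These pairs reuse the same libraries, and neither pairs nor members are independent replicates. The values carry no length correction. Over all genes tested, the medians of the same pairs within and between groups ran from -0.02 to 0.04.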
